A study of Mus musculus with 42 samples.

Results

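The genes Slc19a2, Enc1, Inka2, Klhl26, Fchsd2, Rgs14 and Trim7, 7 in all, were followed in 21 mouse pre-B cell lines, untreated and after ionizing radiation. They were chosen by name, with earlier results of these same arrays known, as less familiar genes that stood out after radiation. Their radiation response is therefore a description, and calls of a fit over all genes are listed for them without being read as a test. The platform annotation gives these 7 symbols to 15 of 34945 probe sets with 1 symbol, and 11 of the 15 passed the filter on low signals. Each gene is represented by its kept probe set with the highest mean, and all 7 are among the 12363 genes that passed.

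Every line had been made by transforming bone marrow cells of a mouse 3 to 5 weeks old with a pMSCV-v-abl retrovirus. All donor mice, WT included, carried the Em-Bcl2 transgene, whose enhancer drives Bcl2, an inhibitor of apoptosis, in lymphoid cells. The 7 genotypes were WT, Atm-/-, Scid (mutated in Prkdc, which encodes the DNA-PK catalytic subunit used in end joining), Mre11A/A (with a hypomorphic form of the nuclease Mre11), 53bp1-/-, H2ax-/- and Mdc1-/-. Each genotype had 3 lines. Each line gave 1 untreated array, labelled as 0 Gy plus 2 h, and 1 array made 2 h after 1 Gy, 42 Affymetrix arrays in all. The γ-rays came from a caesium source at 0.72 Gy per min. Arrays of one group are labelled as biological replicates without word on whether the lines came from separate mice, so p-values measure the spread between these lines. WT lines are numbered 1, 3 and 4, and those of each mutant 1 to 3.

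Double-strand breaks activate Atm, a kinase that stabilizes the transcription factor p53 and also feeds a signal to the NF-kB family. Cdkn1a, the cell cycle inhibitor p21, is a textbook p53 target, and Relb, a subunit of NF-kB, is itself a target of NF-kB. Both served as references, and each of the 7 genes was set beside them over the 21 lines. Slc19a2 is a high-affinity thiamine transporter of the cell surface. Enc1 and Klhl26 are BTB-kelch proteins, a family in which many members hand substrates to Cul3 ubiquitin ligases. Inka2 inhibits the kinase Pak4, Fchsd2 is an F-BAR and SH3 protein of actin assembly and endocytosis, Rgs14 is a regulator of G-protein signalling and Trim7 is a TRIM-family ubiquitin ligase.

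The array medians lay between 62.6 and 82.9 on 40 arrays and at 103.2 and 115.7 on the irradiated arrays of WT line 4 and Atm-/- line 2. With 3 arrays in each group, precision is limited by their number. Signals of Atm, Mre11a, H2ax and Mdc1 did not overlap between the 6 arrays of their own mutant and the 6 WT arrays. The ranges overlapped for Trp53bp1 (736 to 1291 in 53bp1-/-, 1176 to 1849 in WT) and for Prkdc in Scid, whose allele is a point mutation, so that this signal checks nothing. The pre-B label was borne out by 10 measured markers, with summed signals from 58673 to 107511. Summed signals ran from 44.7 to 812 for T-cell markers (2 of 6 measured), 274 to 2921 for myeloid markers (7 of 10) and 75.5 to 397 for stromal markers (3 of 8), and 0 of 5 erythroid markers passed the filter. In bulk RNA, a change in the share of a kind of cell and a change per cell cannot be told apart.

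The stretches before the transcription starts of Slc19a2, Inka2 and Cdkn1a are shown because the genes are sorted here by a p53 target and an NF-kB subunit. RefSeq's table for GRCm38.p6 held 8 starts of 5 of the 7 genes. In the 250 bases before each start, exact matches to the p53 half-site and to the NF-kB site, each 10 letters, were sought on both strands. Of 32851 windows of this length in the table, 7.13% held a half-site and 7.25% an NF-kB site. Slc19a2 held a match to the NF-kB site 160 to 151 bases upstream and none to the half-site, in a window of 73.2% G and C (median of all windows 52.4%). The second start of Inka2, which lies within the gene, had a half-site match 81 to 72 bases upstream, of which 30 bases are printed. The first start of Cdkn1a had 2 half-site matches, at 73 to 64 and 51 to 42 bases upstream, and its second start had no match to either motif. Capitals mark the matches, and all 3 stretches are read from the plus strand:
Slc19a2, chr1:164248796-164249045: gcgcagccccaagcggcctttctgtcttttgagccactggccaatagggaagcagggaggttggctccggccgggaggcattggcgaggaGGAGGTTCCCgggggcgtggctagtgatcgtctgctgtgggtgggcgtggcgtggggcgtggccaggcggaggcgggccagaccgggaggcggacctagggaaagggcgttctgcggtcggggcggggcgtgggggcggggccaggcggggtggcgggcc
Inka2, chr3:105705367-105705396: ctgtctgcccGGGCTTGTCTgccagcaggg
Cdkn1a, chr17:29090729-29090978: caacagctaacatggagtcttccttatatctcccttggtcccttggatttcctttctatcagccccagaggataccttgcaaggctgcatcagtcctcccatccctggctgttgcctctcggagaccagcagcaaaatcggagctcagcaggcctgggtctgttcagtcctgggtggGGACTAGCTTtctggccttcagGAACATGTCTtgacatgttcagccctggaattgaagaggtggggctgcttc

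No match to either motif was found in the windows of Fchsd2, Klhl26 and Trim7 or at the first start of Inka2. A match is a description of letters and says nothing of binding.

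The signal of Slc19a2 was higher after radiation in 21 of 21 lines, with a median change of 2.02 in log2(signal + 16), the scale of all changes given here, on which 1 unit is a factor of 2. In WT lines 1, 3 and 4 the untreated signals were 871, 1122 and 1425 and the irradiated signals 4985, 4411 and 2861. All 3 irradiated WT arrays lay above the untreated ones, and line 4, the line of a high-median array, changed least (1.00 against 2.49 and 1.96). The WT mean change was 1.82 ± 0.76 (SD, n = 3), and 2.23 without line 4. In Atm-/- the untreated signals of 566, 408 and 1411 met irradiated signals of 727, 504 and 1527. On the probe set used, each Atm-/- line was slightly higher after radiation, yet the groups overlapped. The mean change was 0.25 ± 0.13 (SD, n = 3). Between WT and Atm-/- stood Mre11A/A, whose 3 lines changed by 1.34, 1.51 and 1.44, the narrowest spread of the 7 genotypes for Slc19a2 (SD 0.09).

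The mean changes of Slc19a2 were 2.41 ± 0.26 in Scid, 2.30 ± 0.17 in 53bp1-/- and 2.14 ± 0.18 in Mdc1-/- (SD, n = 3 each). These 3 genotypes lay within each other's spread and within that of WT. Among 12363 genes ordered by mean change, Slc19a2 stood 2nd in Scid, 6th in Mre11A/A, 7th in 53bp1-/- and 12th in WT, but at place 2494 in Atm-/-. H2ax-/- was split: lines 1 and 3 went from 1412 to 5452 and from 1108 to 5562, while line 2 went from 462 to 554. The H2ax-/- mean was 1.50 ± 1.10 (SD, n = 3), and 2.12 without line 2. The other kept probe sets of Slc19a2 followed the one used, with correlations of the change of 0.90 and 0.98 over the 21 lines. The first of them had the same sign as the set used in 19 of 21 lines. In Atm-/- lines 1 to 3 it changed by 0.96, -0.48 and -0.3, a mean of 0.06 ± 0.79 (SD, n = 3). The small rise in each Atm-/- line was thus not seen on that set.

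**Figure D1:**
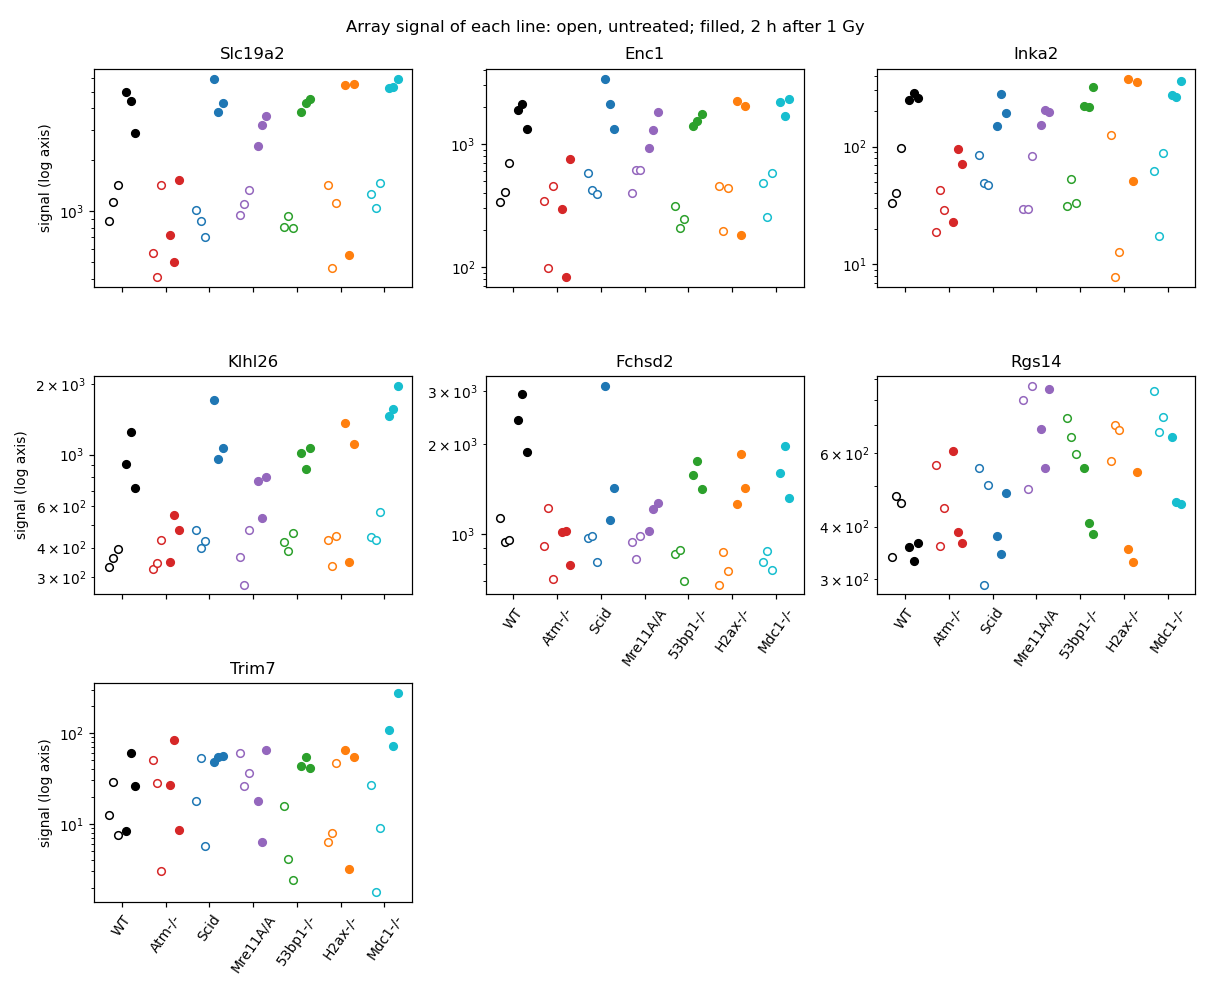
Array signal of each of the 7 genes (vertical log axis, each panel with its own range) in 3 lines per genotype, open circles untreated and filled circles 2 h after 1 Gy. Slc19a2 and Enc1 show filled circles well above open ones except in Atm-/- and in H2ax-/- line 2, whereas for Rgs14 they lie below in 53bp1-/-, H2ax-/- and Mdc1-/-.

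Enc1, known as an actin-associated kelch protein, followed Slc19a2 from line to line, with a correlation of their changes of 0.92 over the 21 lines and 0.89 over the 18 lines other than Atm-/-. It was higher after radiation in 18 of 21 lines (median change 2.09). Its WT signals went from 340, 409 and 703 to 1898, 2126 and 1335, a change of 2.43, 2.33 and 0.91 in lines 1, 3 and 4. Again WT line 4 changed least, and the groups did not overlap. The WT mean was 1.89 ± 0.85 (SD, n = 3), and 2.38 without line 4. In Atm-/- the signals went from 347, 98.9 and 455 to 298, 82.2 and 761. Thus 2 of 3 Atm-/- lines were lower, and the mean change was 0.10 ± 0.54 (SD, n = 3). Enc1 in H2ax-/- went from 454 to 2226 in line 1, from 196 to 182 in line 2 and from 442 to 2048 in line 3. Line 2 alone did not move upward, and the mean of 1.44 ± 1.34 became 2.21 without it. Mean changes were 1.28 ± 0.25 in Mre11A/A, 2.17 ± 0.42 in Scid, 2.27 ± 0.36 in Mdc1-/- and 2.55 ± 0.40 in 53bp1-/- (SD, n = 3 each).

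Among these, Mre11A/A lay lowest for Enc1, above Atm-/- and below the spread of Scid, Mdc1-/- and 53bp1-/-. The 2 kept probe sets of Enc1 correlated at 0.70 in their change over the lines, and in Atm-/- line 2 they disagreed (-0.23 and 1.77). The mean of the kept sets in 53bp1-/- was 2.02 in place of 2.55. A further Enc1 probe set stayed near background and was not used.

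Klhl26, the other kelch protein, was higher after radiation in 21 of 21 lines, by a smaller median of 1.23. Its WT signals went, without overlap, from 329, 360 and 394 to 908, 1243 and 719. Mdc1-/- gave its highest mean change, 1.76 ± 0.07 (SD, n = 3), from 442, 431 and 569 to 1460, 1570 and 1970. The Mdc1-/- and 53bp1-/- changes (1.18 ± 0.05) were far apart relative to their spread, but the WT mean of 1.33 ± 0.46 overlapped both. Mre11A/A had a mean of 0.90 ± 0.16 and Atm-/- one of 0.29 ± 0.32, where line 2 changed by 0.66 and lines 1 and 3 by 0.09 and 0.13. H2ax-/- line 2 went from 335 to 346, a change of 0.04, beside 1.63 and 1.27 in the other two lines. The mean of 0.98 ± 0.83 in H2ax-/- was 1.45 without line 2.

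Inka2, the Pak4 inhibitor, gave large changes from low signals. Its untreated signals lay between 7.76 and 126 and exceeded the median of their own array on 5 of 21 arrays, against 17 of 21 after radiation. The gene therefore passed the filter largely through its irradiated arrays. In WT the signals went from 32.9, 40.0 and 96.5 to 248, 287 and 258, without overlap. It was higher in 21 of 21 lines (median change 1.87). In Mre11A/A the signals went from 29.7, 29.4 and 83.9 to 153, 205 and 196, a mean change of 1.75 ± 0.61 (SD, n = 3), against 1.16 ± 0.26 on the other kept probe set. In H2ax-/- line 2 it changed by 1.51 (7.76 to 51.5), and by 0.79 on the other set, where that line was the lowest of its genotype. Its Atm-/- lines changed by 0.16, 0.93 and 0.96, a mean of 0.68 ± 0.46. With a constant of 64 in place of 16, the 53bp1-/- mean of 2.29 became 1.61. The other kept probe set correlated with the one used at 0.57 in its change.

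Fchsd2, the membrane-remodelling adaptor, was higher in 20 of 21 lines with a median of 0.87, and its lines were ordered differently. In WT its signals went from 1131, 941 and 962 to 2403, 2922 and 1881, without overlap, a mean change of 1.22 ± 0.35 (SD, n = 3). In Atm-/- they went from 913, 1222 and 709 to 1019, 1024 and 792, a mean of 0.02 ± 0.24. H2ax-/- was uniform for Fchsd2: line 2 went from 872 to 1852, the largest change of its genotype (1.07 beside 0.87 and 0.90). Scid was split instead, with 970 to 3120 in line 1, 991 to 1120 in line 2 and 810 to 1423 in line 3. The line that stood low was thus H2ax-/- line 2 for Slc19a2 and Enc1, and Scid line 2 for Fchsd2. Scid line 2 had the highest summed T-cell markers of all lines (812 untreated, 756 irradiated), of which Cd8a and Cd5 passed the filter and the Cd3 genes and Cd4 did not, and the lowest untreated pre-B sum (58673). Scid line 1, the high line for Fchsd2, had the highest myeloid sum (2921 untreated, 2894 irradiated, next line 1051 untreated). This sum rests largely on Fcgr3 (highest signal on any array 2620, against at most 409 for any other myeloid marker). The T-cell sum of Scid line 2 likewise rests largely on Cd5 (highest signal 717, against 161 for Cd8a). The part of these markers in the result was not tested. The mean in Mre11A/A was 0.34 ± 0.21, while 53bp1-/-, H2ax-/- and Mdc1-/- lay at 0.94 ± 0.07, 0.95 ± 0.11 and 0.97 ± 0.18 (SD, n = 3 each), within each other's spread.

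Rgs14, a brake on inhibitory G-protein subunits, went the other way. It was lower after radiation in 16 of 21 lines, with a median change of -0.33, so it was no riser. In 53bp1-/- the signals went from 724, 654 and 597 to 553, 407 and 383. In H2ax-/- they went from 574, 698 and 680 to 353, 329 and 539. In Mdc1-/- they went from 842, 674 and 730 to 655, 457 and 452. In these 3 genotypes all irradiated arrays lay below all untreated ones, as did those of 3.61%, 5.76% and 6.48% of all genes, with mean changes of -0.55 ± 0.15, -0.68 ± 0.36 and -0.52 ± 0.16 (SD, n = 3 each). The mean was -0.24 in WT, -0.12 in Scid, -0.03 in Mre11A/A and -0.02 in Atm-/-, and in each of these 4 genotypes at least 1 line was higher.

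Trim7, a ubiquitin ligase, was measured near background. No untreated array and 3 of 21 irradiated arrays lay above their own array's median, so the gene passed the filter only through irradiated arrays. Its untreated signals ranged from 1.80 to 60.0 with a median of 15.9, about the size of the constant added before the logarithm. In Mdc1-/- the signals went from 26.6, 1.80 and 8.96 to 108, 71.1 and 276, a mean change of 2.46 ± 1.01 (SD, n = 3). That mean was 3.82 with a constant of 1 and 1.40 with a constant of 64. In Mre11A/A they went from 60.0, 25.8 and 36.0 to 17.9, 6.36 and 64.4, a mean of -0.48 ± 0.97. Trim7 was higher in 16 of 21 lines, without overlap in 2 of 7 genotypes, and its large changes rest on these low signals. Its other 2 probe sets did not pass the filter, and their pattern over genotypes differed. In 53bp1-/- they changed by 0.17 and 0.34, against 1.44 on the set used. In WT they changed by 1.03 and 0.71, without overlap, against 0.45 with overlap on the set used. Mdc1-/- was higher on average on both (1.41 and 0.82).

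**Figure D2:**
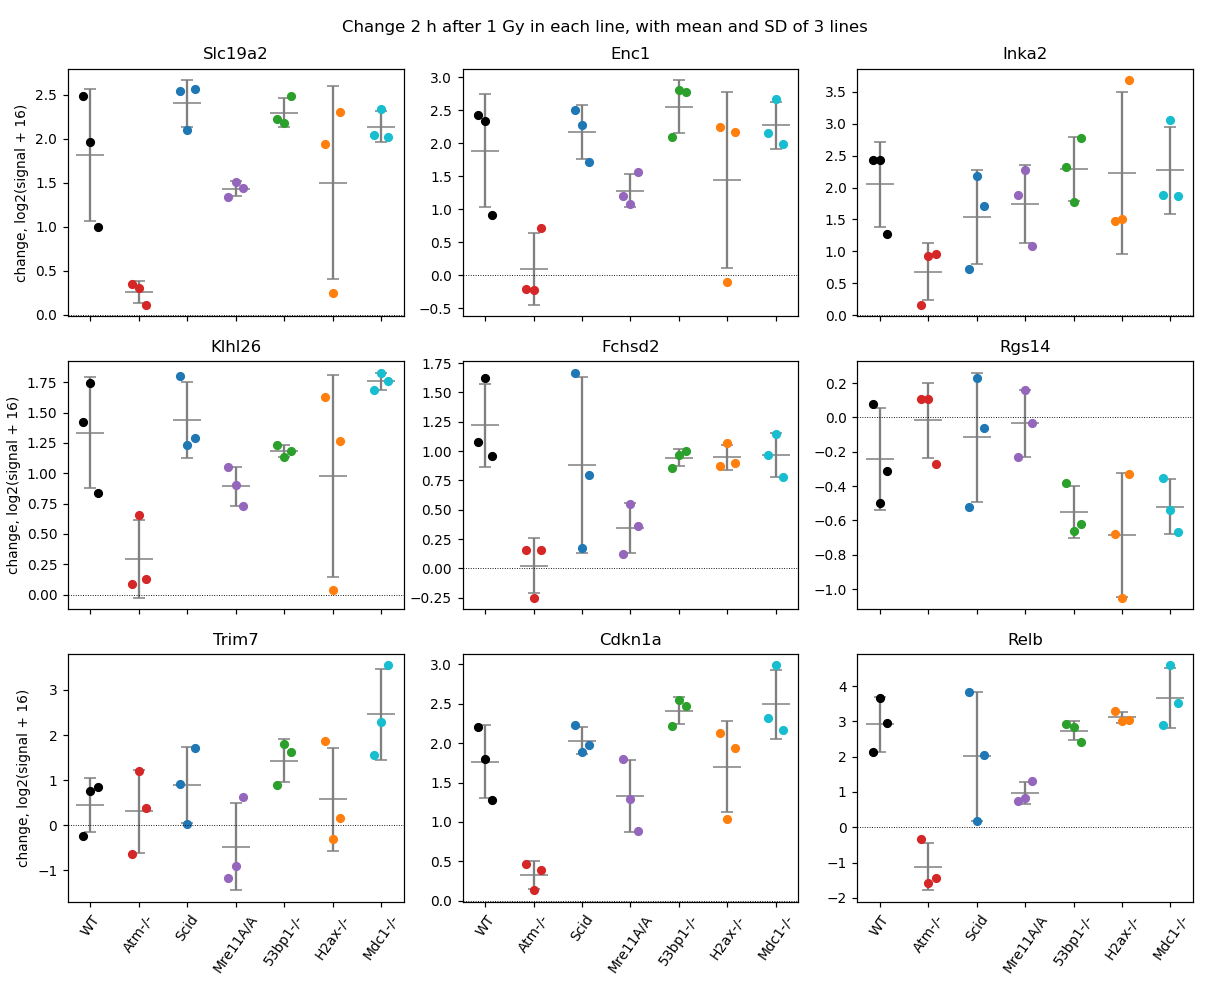
Change 2 h after 1 Gy in log2(signal + 16) for each line (points, 3 per genotype), with the genotype's mean and SD (grey bars), for the 7 genes, Cdkn1a and Relb; each panel has its own range. H2ax-/- line 2 is the low point of its genotype for Slc19a2, Enc1, Klhl26 and Cdkn1a but not for Fchsd2, and for Relb it lies close to its genotype (3.02 beside 3.29 and 3.03); Scid line 2 is the low point of its genotype for Fchsd2 and Relb.

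A fit across all 12363 genes (limma on the per-line changes, Benjamini-Hochberg adjusted p under 0.05) gives the background for these descriptions. It called 2.0% of genes higher in WT, 1.72% in Scid, 1.52% in 53bp1-/-, 1.05% in H2ax-/-, 3.19% in Mdc1-/-, 0.518% in Atm-/- and 0.0324% in Mre11A/A. Slc19a2, Enc1, Inka2, Klhl26 and Fchsd2 were among these in WT, Scid, 53bp1-/-, H2ax-/- and Mdc1-/-, Trim7 in Mdc1-/- and Slc19a2 alone in Mre11A/A. None of the 7 was called in Atm-/-. Rgs14 was among the 0.421%, 0.922% and 2.53% called lower in 53bp1-/-, H2ax-/- and Mdc1-/-. Without the line in the fit, Fchsd2 was called in WT, Klhl26 in Scid and 5 of the 7 in Mdc1-/- (all but Enc1 and Rgs14), where 0.0971%, 0.0728% and 0.631% of genes were called in either direction. In Atm-/-, Mre11A/A, 53bp1-/- and H2ax-/- that fit called none of the 7, and 0.00809%, 0.0%, 0.0243% and 0.089% of all genes. Nothing about the genes is read from these counts, since they were chosen for this contrast. The irradiated arrays lay above all untreated ones in 5 of 7 genotypes for Slc19a2, Enc1, Inka2 and Klhl26 and in 6 of 7 for Fchsd2, without a test. The share of all genes with such arrays was 5.1% in WT, 3.58% in Atm-/-, 3.96% in Scid, 2.98% in Mre11A/A, 4.94% in 53bp1-/-, 4.27% in H2ax-/- and 7.21% in Mdc1-/-.

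Each gene was sorted to Cdkn1a or Relb by the higher Pearson correlation of the per-line changes, where the correlations differed by at least 0.1. The lines share the same arrays for all genes, and the 3 Atm-/- lines lie apart at the low end. Cdkn1a and Relb themselves correlated at 0.78 over 21 lines and at 0.46 over the 18 lines other than Atm-/-. On the probe set used, Cdkn1a was higher in every line, from 0.13 in Atm-/- line 2 to 2.99 in Mdc1-/- line 2. Its other kept probe set was lower in 3 of 3 Atm-/- lines (-0.73, -1.49 and -0.28) and higher in the 18 others, and the 2 sets correlated at 0.87. With that set as the reference, chosen after seeing the data, Klhl26 (0.66 with Cdkn1a, 0.68 with Relb) met neither and Trim7 (0.25 and 0.48) went to Relb, and the other 5 genes were sorted as before. Relb ran from -1.57 in Atm-/- line 2 to 4.59 in Mdc1-/- line 2, and was low in Scid line 2 (0.17) but not in H2ax-/- line 2 (3.02). Its signal exceeded the median of its own array on 7 of 21 untreated arrays and on 18 of 21 irradiated ones.

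Slc19a2 and Enc1 followed Cdkn1a most closely. Slc19a2 correlated at 0.89 with Cdkn1a and 0.65 with Relb (Spearman 0.81 and 0.42), and over the 18 lines at 0.77 and 0.19. Leaving out the 2 lines farthest from the median of the reference gave 0.84 and 0.40. Enc1 correlated at 0.90 with Cdkn1a and 0.64 with Relb (Spearman 0.87 and 0.53), at 0.82 and 0.29 over the 18 lines, and at 0.87 and 0.49 without the 2 farthest lines. The same order held within genotypes, where deviations from genotype means gave 0.73 and 0.13 for Slc19a2 and 0.73 and 0.09 for Enc1.

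Klhl26 and Inka2 were sorted to Cdkn1a less firmly. For Klhl26 the Pearson correlations were 0.83 with Cdkn1a and 0.68 with Relb, but Spearman's were 0.75 and 0.71. By rank, after quantile normalization (0.79 and 0.69) or with the mean of probe sets (0.75 and 0.68), the margin of 0.1 was not met before rounding. Klhl26 and Relb have 1 probe set each, so the mean of probe sets altered only the reference Cdkn1a in this comparison. Inka2 correlated at 0.64 and 0.46 (Spearman 0.54 and 0.34), and at 0.40 and 0.08 over the 18 lines. With the mean of probe sets, which alters both Inka2 and Cdkn1a, its correlations were higher, at 0.82 and 0.63.

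Fchsd2 was the gene that followed Relb. It correlated at 0.89 with Relb and 0.65 with Cdkn1a (Spearman 0.79 and 0.64), at 0.82 and 0.34 over the 18 lines, and at 0.83 and 0.19 within genotypes. Rgs14 was negative with both, at -0.41 with Cdkn1a and -0.68 with Relb (Spearman -0.52 and -0.76), and at -0.22 and -0.73 over the 18 lines. The rule places it with Cdkn1a because that value is less negative, although it ran against both, and more so against Relb. Trim7 met neither, at 0.46 and 0.48, but by Spearman's correlation (0.59 and 0.49) it was sorted to Cdkn1a and within genotypes (-0.12 and 0.23) to Relb.

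**Figure D3:**
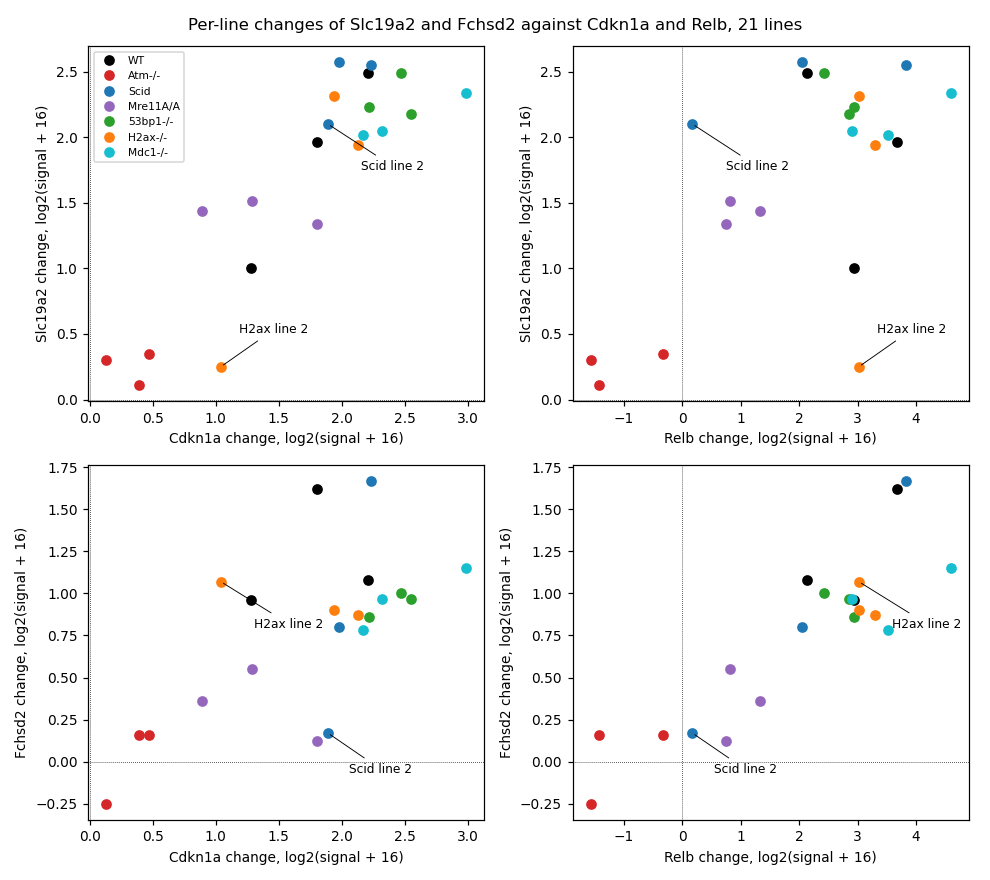
Per-line change of Slc19a2 (top) and Fchsd2 (bottom) against that of Cdkn1a (left) and Relb (right), all in log2(signal + 16), 1 point per line coloured by genotype. H2ax-/- line 2 lies with the Atm-/- lines for Slc19a2 and with the responding lines for Fchsd2 and Relb, and Scid line 2 lies with the responding lines for Slc19a2 and low for Fchsd2 and Relb (0.17 each).

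H2ax-/- line 2 and Scid line 2, singled out after their values were seen, carried much of this separation. With both left out, Slc19a2 correlated at 0.91 with Cdkn1a and 0.82 with Relb, Enc1 at 0.92 and 0.84, and Klhl26 at 0.84 and 0.87. These 3 genes and Rgs14 (-0.66 and -0.70) then met neither reference, Inka2 stayed with Cdkn1a (0.63 and 0.52) and Fchsd2 with Relb (0.88, and 0.74 with Cdkn1a). In H2ax-/- line 2 the median change was 0.17 over 32 measured p53 targets and 0.49 over 35 NF-kB targets. In Scid line 2 it was 0.70 and 0.06. The separation was as large without the lines of the high-median arrays: leaving out WT line 4 and Atm-/- line 2 gave 0.87 and 0.61 for Slc19a2 and 0.58 and 0.85 for Fchsd2.

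**Figure D4:**
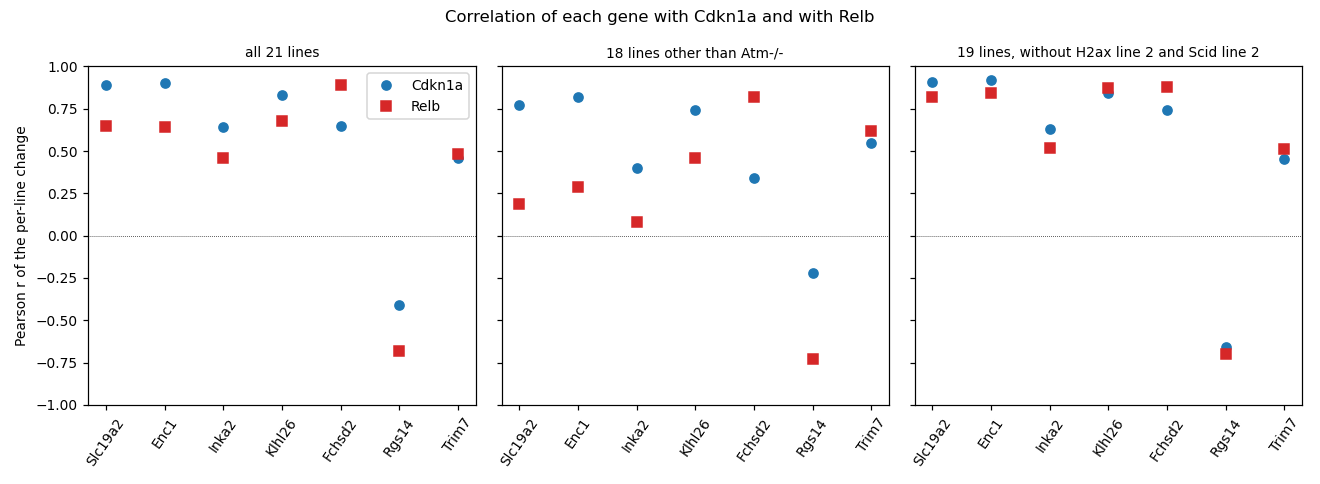
Pearson correlation of the per-line change of each gene with that of Cdkn1a (circles) and Relb (squares), over all 21 lines, the 18 lines other than Atm-/- and the 19 lines without H2ax-/- line 2 and Scid line 2. The 2 symbols are far apart for Slc19a2 and Enc1 in the middle panel (0.77 and 0.19, 0.82 and 0.29) and close together in the right one.

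The lists of p53 and NF-kB targets, chosen with results of these arrays known, place the references. Of 32 measured p53 targets (35 listed), 21 rose in WT, 20 in Scid, 22 in 53bp1-/-, 17 in H2ax-/- and 23 in Mdc1-/-, but 1 each in Atm-/- and Mre11A/A (limma, adjusted p under 0.05), and none fell. Of all genes, 2.0%, 1.72%, 1.52%, 1.05%, 3.19%, 0.518% and 0.0324% rose in these genotypes, in the same order. Their median change was 0.93 in WT, 0.60 in Mre11A/A and 0.08 in Atm-/-, where that of all genes lay between -0.02 and 0.03. Fas, a death receptor, had the highest mean over the 21 lines (1.82), followed by Cdkn1a (1.72) and Plk2 (1.59), a polo-like kinase. Of 35 measured NF-kB targets (37 listed), 18 rose in WT, 11 in Scid, 13 in 53bp1-/-, 12 in H2ax-/-, 18 in Mdc1-/- and 0 in Atm-/- and Mre11A/A; 1 fell in Atm-/-. Relb (2.04), Cd40 (1.90), a costimulatory receptor, and Cd69 (1.67), an early activation marker, had the highest means. Without the line in the fit, 0 to 9 p53 targets and 0 to 8 NF-kB targets rose in a genotype, most in Mdc1-/- for both lists. By the same margin, 20 of 31 p53 targets other than Cdkn1a sorted to Cdkn1a and 3 to Relb, and of 34 NF-kB targets other than Relb 20 sorted to Relb and 1 to Cdkn1a. Of the 12354 genes outside the 7 and the references, 24.7% sorted to Cdkn1a and 25.3% to Relb.

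Over the same 21 lines, the genes whose change had the highest Pearson correlation with that of each of the 7 were sought among all genes tested. This correlation compares the pattern over lines and takes no account of the size of a change. Closest to Slc19a2 were 9230114K14Rik (0.97), Polk (0.95), a translesion polymerase, Aen (0.94), a nuclease, Ccng1 (0.94) and Ddias (0.93). For Enc1 they were 9230114K14Rik (0.95), Ccng1 (0.93), Gtse1 (0.93), Aen (0.92) and Slc19a2 itself (0.92). Both genes had 13 genes of the p53 list and 0 of the NF-kB list among their 50 closest. Among all 12363 genes, 32 were on the p53 list and 35 on the NF-kB list. For the references the counts were 10 and 0 (Cdkn1a) and 1 and 11 (Relb).

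Fchsd2 had 0 and 11. Its closest were Nfkbie (0.97), an inhibitor of NF-kB, Birc3 (0.93), Icam1 (0.92), Gimap6 (0.91) and Swap70 (0.91). Klhl26 had 10 and 0, with Mettl6 (0.92), Snx20, Fam216a, Polk and Cdc34 (0.91 each) closest.

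Inka2 had 3 and 0 with weaker neighbours: Mrpl2 (0.76), Psmd10 (0.74), Erp44 (0.72), Snord104 and Mettl17 (0.71 each). These neighbours were no risers themselves, with mean changes over the 21 lines between -0.11 and 0.07. Trim7 had 5 and 1, led by Dffb (0.83), Tsen54 (0.81), Trafd1 (0.77), Aprt and Spryd4 (0.76 each). Rgs14 had 0 of either list, with Depdc1b (0.78), Rhobtb2 (0.76), Ago4 and St8sia4 (0.74 each) and Cybc1 (0.71). These correlations are over 21 lines on shared arrays and carry no test.

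Untreated levels were not what the genes were chosen for, although the untreated arrays enter the changes that were. These levels were tested in each mutant against WT on the 21 untreated arrays, for Trim7 on signals near background. None of 42 tests of the 7 genes was called (limma, adjusted p under 0.05), 6 had an unadjusted p under 0.05, and the smallest adjusted p was 0.064. Of all genes the fit called 0.0162% in Atm-/-, 0.218% in Scid, 1.85% in Mre11A/A, 2.05% in 53bp1-/-, 2.94% in H2ax-/- and 4.07% in Mdc1-/-. Standard errors of a difference ran from 0.17 to 0.58 in log2. Slc19a2 differed most in Atm-/-, by -0.68 with an SE of 0.38 (adjusted p = 0.55). Enc1 differed by -0.82 in Atm-/- and -0.84 in 53bp1-/- (SE 0.45, adjusted p = 0.54 and 0.39).

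Rgs14 came nearest to the threshold. Its untreated signals in WT were 338, 474 and 456, and 842, 674 and 730 in Mdc1-/-. All 3 Mdc1-/- lines lay above all WT lines, a difference of 0.81 ± 0.24 (SE, adjusted p = 0.064 by limma), which was called with the line as a random block over all 42 arrays (adjusted p = 0.034). The lines of Mre11A/A, 53bp1-/- and H2ax-/- also lay above WT, by 0.72, 0.63 and 0.61 (SE 0.24, adjusted p = 0.15, 0.19 and 0.18), whereas Atm-/- and Scid differed by 0.09 and 0.05. The moderated F test over 7 genotypes gave an adjusted p of 0.054 (0.015 with the block), and it called 12.1% of all genes. In 53bp1-/-, H2ax-/- and Mdc1-/-, which were both higher untreated and lower after radiation, the same untreated arrays enter both values, and these comparisons share the WT arrays.

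Klhl26 and Fchsd2 also had an unadjusted p under 0.05. Klhl26 was 0.39 ± 0.18 higher in untreated Mdc1-/- and Fchsd2 differed by -0.39 ± 0.17 in untreated H2ax-/- (SE, adjusted p = 0.27 and 0.23). Of the 42 pairs, 10 had no overlap between mutant and WT lines, none of them called. The share of all genes without overlap was 11.3% in Atm-/-, 16% in Scid, 22.4% in Mre11A/A, 23.1% in 53bp1-/-, 26.8% in H2ax-/- and 27.0% in Mdc1-/-. Across lines, untreated levels of Slc19a2 and Cdkn1a correlated at 0.82 (Spearman 0.72, and 0.81 over the 18 lines), those of Enc1 and Cdkn1a at 0.82 and those of Slc19a2 and Enc1 at 0.79. Fchsd2 and Relb correlated at 0.20 in their untreated levels. Untreated Cdkn1a was 216 in H2ax-/- line 2 and 296 in Atm-/- line 2, against 1321 or more in every other line. These lines were also the lowest of all for untreated Slc19a2 (462 and 408) and Enc1 (196 and 98.9). Correlations of untreated levels without both lines were not computed.

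Relatives of the 7 genes by family or pathway were measured in the fit of the per-line changes, 60 of 78 listed. In 420 tests over the 7 genotypes 22 were called, in 10 genes, and 1 without the line in the fit; over all genes 2.49% of 86541 such tests were called. Of 23 kelch relatives 2 rose and 3 fell in at least 1 genotype, of 12 Rgs relatives 1 rose and 1 fell, and of 8 TRIM relatives 1 rose and 2 fell. Of all genes, 4.63% rose and 4.86% fell in at least 1 genotype. None of the 13 F-BAR and endocytic relatives, the 3 Inka and Pak relatives or the 1 thiamine relative was called in any genotype. The median over genes of the mean change lay between -0.06 and 0.07 in the 6 groups of relatives, and at 0.00 over all genes.

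Trim11, a ubiquitin ligase, had the largest mean change of the relatives (0.66). It rose by 0.87 in WT (adjusted p = 0.0008), 0.92 in Scid (0.00044), 0.86 in 53bp1-/- (0.00092), 0.58 in H2ax-/- (0.035) and 0.97 in Mdc1-/- (8e-05), each with an SE of 0.14 and in 3 of 3 lines. In Atm-/- and Mre11A/A its changes were 0.09 and 0.31 (adjusted p = 0.81 and 1.0). In Mdc1-/- its call held without the line (adjusted p = 0.034).

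Of the kelch genes, Klhl42 rose by 0.65 in WT, 0.90 in Scid and 0.65 in Mdc1-/- (SE 0.17, adjusted p = 0.034, 0.0031 and 0.023). It changed by 0.64 in 53bp1-/- and 0.56 in H2ax-/- without a call (adjusted p = 0.057 and 0.11). In Atm-/- it changed by -0.41 (adjusted p = 0.26), lower in 3 of 3 lines. Klhl22, a substrate adaptor of Cul3, rose by 0.61 in Mdc1-/- (adjusted p = 0.028). It was called in no other genotype but was higher in 3 of 3 lines of each, Atm-/- included. Its changes were 0.53 in WT and 0.49 in Atm-/- (adjusted p = 0.092 and 0.14). Rgs2, a relative of Rgs14, fell by 0.43 in WT, 0.34 in Scid, 0.39 in H2ax-/- and 0.53 in Mdc1-/- (SE 0.08, adjusted p = 0.0021, 0.019, 0.009 and 9.3e-05), calls that were all lost without the line (adjusted p = 1.0). All p-values here are from limma on the per-line changes, adjusted over all genes.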

How the data were processed

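The authors deposited linear intensities per probe set, computed with MAS5 per the submitters' processing notes; RNA was labelled with the one-cycle protocol of the manufacturer, per the labels' protocols. With 2% trimmed from either end, every array averages 500, which fixes the average signal and makes changes relative to it. Of 45101 probe sets, 64 were controls, 34945 carried 1 symbol of the platform annotation, 932 several and 9160 none given here. Probe sets exceeding their array's median on 3 or more arrays were kept (28260 kept, 23245 with 1 symbol), and the kept set with the highest mean stood for its gene (12363 genes).

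Values were analysed as log2(signal + 16), which understates changes of low signals. In R 4.3.3, limma 3.58.1 (with the package data.table, version 1.17.8) fitted the 21 untreated arrays by genotype and, separately, the 21 per-line changes, with moderated variances, two-sided p-values and Benjamini-Hochberg adjustment over all genes within a comparison, at 0.05. Both fits were tested on simulated data. The pairing of arrays rests on the same genotype and number in the labels. The 21 pairs of the same number deviated together from their group means (correlations of 0.354 to 0.643). Deviations from a group mean cancel out within the group, so these values push those of different numbers negative (at most -0.0526). The negative values are therefore no separate evidence of the pairing. Tables and figures were made with Python 3.11.15, pandas 2.3.3, numpy 2.4.6, scipy 1.17.1 and matplotlib 3.10.9. Promoter windows are RefSeq's (GRCm38.p6); probe sets carry no coordinates used here.

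The 7 genes, the gene lists and the tests were chosen with earlier results of these data known. Besides the 7 genes, Cdkn1a and Relb, the text names the 5 genes most correlated with each, at most 4 called relatives and at most 3 genes per list, those with the largest mean change. Alternatives were the constant (1 and 64), no filter, quantile normalization, centring on the 75th percentile, the mean of kept probe sets, the fit with or without the line, other references and leaving out lines. List genes without a probe set of that symbol were not analysed here.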

Additional observations from a re-analysis of the deposited data

Results flagged for a closer look

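Relb, the NF-kB subunit used as a reference, changed in opposite directions: it was lower after radiation in 3 of 3 Atm-/- lines, with a mean change of -1.11, and higher in every line of the 6 other genotypes. This difference was not tested, and Fchsd2, the gene that followed Relb, did not show it (mean change 0.02 in Atm-/-).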

How the results depend on the processing

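Of 392 mean changes of the 7 genes under alternatives that kept the lines of a genotype or left out the named pairs of lines, 8 moved by over 1 SD between lines, of Enc1, Inka2, Klhl26 and Trim7, and 2 changed sign (Enc1 in Atm-/- to -0.09 after quantile normalization, Trim7 in Atm-/- to -0.14). With 1 line left out, 8 of 147 means changed sign, of Enc1, Fchsd2, Rgs14 and Trim7, each at most 0.57 in size at first, and H2ax-/- means ran from 1.10 to 2.12 for Slc19a2 and 1.03 to 2.21 for Enc1. Of 588 untreated differences, 2 passed the threshold anew, both of Rgs14 in Mdc1-/- (adjusted p = 0.034 with the replicate block and 0.044 without H2ax-/- line 2 and Scid line 2). Of 448 correlations with a reference, 35 moved by 0.1 or more.

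With the replicate block (the line over all 42 arrays), untreated calls went from 2 to 19 in Atm-/-, 27 to 81 in Scid, 229 to 365 in Mre11A/A, 254 to 424 in 53bp1-/-, 364 to 558 in H2ax-/- and, for the F test, 1499 to 2337. With no replicate block, calls of the response went from 465 to 12 in WT, 164 to 1 in Atm-/-, 332 to 9 in Scid, 4 to 0 in Mre11A/A, 240 to 3 in 53bp1-/-, 244 to 11 in H2ax-/- and 707 to 78 in Mdc1-/-, and relatives' calls from 22 to 1. Without H2ax-/- line 2 and Scid line 2, a choice made after seeing the data, untreated calls were 13 in Scid, 137 in H2ax-/- and 915 for the F test, response calls in Mre11A/A 31, and 1 gene in place of 5 sorted to Cdkn1a. Those 5 include Rgs14, which ran against Cdkn1a (-0.41). Without WT line 4 and Atm-/- line 2, chosen likewise, the response calls were 333 in Atm-/- and 17 in Mre11A/A. The mean of probe sets gave 121 untreated calls in Mre11A/A, response calls of 76 in Atm-/- and 7 in Mre11A/A, 13 calls of relatives and 2 genes sorted to Relb in place of 1, as did the other Cdkn1a probe set as reference (2). No filter gave 16 untreated calls in Scid.

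Leaving out 1 line at a time gave 4 to 5 genes sorted to Cdkn1a, 1 to Relb and 13 to 25 calls of relatives. The genes sorted to Cdkn1a again include Rgs14, whose correlations with both references were negative. Response calls ran from 114 to 541 in WT, 86 to 309 in Atm-/-, 66 to 387 in Scid, 0 to 21 in Mre11A/A, 80 to 276 in 53bp1-/-, 50 to 294 in H2ax-/- and 310 to 864 in Mdc1-/-. Untreated calls ran from 1 to 38 in Atm-/-, 7 to 47 in Scid, 99 to 304 in Mre11A/A, 102 to 343 in 53bp1-/-, 156 to 522 in H2ax-/-, 170 to 693 in Mdc1-/- and 1130 to 1806 for the F test. The cause of these shifts was not tested. Low signals limit Trim7, Inka2 and the reference Relb, and 3 lines per genotype limit the rest.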
